A study of Mus musculus with 9 samples.

Results

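The mTORC1 brakes and nutrient sensors followed here, in the mouse pancreatic tumor cell line 6620c1, are 10 genes. They are the sestrin genes Sesn1, Sesn2 and Sesn3, the stress-induced inhibitor gene Ddit4, the TSC complex genes Tsc1 and Tsc2, the GATOR1 genes Depdc5 and Nprl2, the folliculin gene Flcn and the Rag GTPase gene Rragd. They were taken by symbol, and all 10 had a row among the 24493 rows of the deposited table. The expression filter, at least 1 TPM in at least 3 libraries, was passed by 9 of them and by 12693 rows in all. Rragd reached 1 TPM in 1 of 9 libraries and did not pass.

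RNA was sequenced from 3 libraries each at day 0, day 2 and day 14 of what the labels call nutrient and oxygen deprivation. The medium was DMEM with 2.5 mM glucose, serum (fetal calf) at 0.5% and amino acids at 20% of the usual level, with no further treatment. The labels give this medium for the day 0 samples too, and state neither the oxygen level nor an earlier medium, and every group is this 1 cell line. Each sample's column in the deposited table is headed WT, a prefix that the labels do not explain, and they give no genotype. No library came from cells kept in full medium for the same time, so the effect of deprivation and that of days in culture cannot be told apart. The labels do not say that libraries of a day came from separate cultures, and p-values here measure the spread between these libraries, which may be technical. Throughout, ± gives the SD over the 3 libraries of a day, and 3 values in a row are replicates 1, 2 and 3.

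As background, mTORC1 is a kinase complex that works at the lysosome and drives growth when amino acids, energy, oxygen and growth factors suffice. Amino acids act through the Rag GTPases, which bring mTORC1 to the lysosome. GATOR1 switches the Rags off, and the sestrins free GATOR1 by binding its inhibitor GATOR2, with Sestrin2 serving as a leucine sensor. Growth factor, energy and oxygen signals act through the TSC complex, which switches off Rheb, the direct activator of mTORC1. The product of Ddit4 (REDD1) favours the TSC complex, and folliculin acts on RagC and RagD and so on whether mTORC1 phosphorylates the lysosomal factors TFEB and TFE3.

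The promoters of Ddit4, Sesn2 and Sesn3 are shown because these members were higher at both later days and moved farthest. All 10 members matched RefSeq promoters (build GRCm38.p6), with 11 start sites because Sesn1 has 2. The 250 bases before each start were searched on both strands for ACGTG and GCGTG (forms of the core bound by HIF), TGATGNAA (an amino acid response element core bound by ATF4), TCACGTG (the CLEAR element core of TFEB and TFE3, which contains ACGTG) and TGTTTAC (a FOXO element core). Capitals mark matches. The sequences run 5′ to 3′ on the strand of the gene, which is minus for Ddit4 and Sesn2 and plus for Sesn3.
Ddit4 (chr10:59951771-59952020): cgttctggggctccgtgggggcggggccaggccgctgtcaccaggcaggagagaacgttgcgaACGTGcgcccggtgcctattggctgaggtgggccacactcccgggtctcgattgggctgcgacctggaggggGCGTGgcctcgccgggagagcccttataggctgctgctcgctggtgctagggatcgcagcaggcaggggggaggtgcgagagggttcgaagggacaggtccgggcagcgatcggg
Sesn2 (chr4:132510457-132510706): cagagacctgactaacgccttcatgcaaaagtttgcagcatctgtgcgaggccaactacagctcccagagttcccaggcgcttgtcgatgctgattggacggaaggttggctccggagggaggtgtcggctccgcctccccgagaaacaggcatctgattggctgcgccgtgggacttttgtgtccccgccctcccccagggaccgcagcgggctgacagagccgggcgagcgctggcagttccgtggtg
Sesn3 (chr9:14276051-14276300): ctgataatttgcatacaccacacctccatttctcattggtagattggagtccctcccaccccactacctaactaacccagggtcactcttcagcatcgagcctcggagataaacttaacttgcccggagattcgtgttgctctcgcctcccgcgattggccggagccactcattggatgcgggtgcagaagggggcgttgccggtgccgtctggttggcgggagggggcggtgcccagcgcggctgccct

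The Ddit4 window held ACGTG at positions -187 to -183 from the start and GCGTG at -115 to -111, both on the strand of the gene. Of the 10 members, Ddit4 alone had ACGTG in this window, which 16.6% of all 32851 RefSeq promoters held. GCGTG was in the windows of 6 members, namely Ddit4, Depdc5, Nprl2, Sesn1, Tsc1 and Tsc2, and in 28.2% of all promoters. Not both windows of Sesn1 held it, and the share of all promoters is counted per window. The members' windows were 52.0% to 71.2% G and C, and the comparison was not matched for this. TGATGNAA, TCACGTG and TGTTTAC were in 0 of the members' windows and in 3.45%, 3.13% and 3.17% of all promoters. The windows of Sesn2 and Sesn3 held none of the 5 motifs. These matches describe letters only, and binding was not measured here.

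The identity of the cells was checked with markers. All 8 epithelial and ductal markers were at or above 1 TPM in each library of day 0 and day 14, and 7 were at day 2, where Epcam was not. Their summed level was 11004 to 11642 TPM on day 0, then 5524 to 7706, then 6959 to 8781 on day 14. The 16 markers of leukocytes, endothelium, fibroblasts, acinar and islet cells summed to 3.78 to 3.94 TPM, 7.41 to 8.60 TPM and 12.7 to 15.5 TPM on those days, with 7, 6 and 2 of them at 0 in all libraries of the day. Of these 16, 2 passed the filter, Cd68 (macrophages) and Cela1 (acinar cells), which reached 7.14 and 4.11 TPM. Cd68 rose by 0.54 at day 2 and 1.18 at day 14 (limma adjusted p = 0.0343 and 0.000870), and Cela1 by 0.94 and 1.82 (limma adjusted p = 0.0223 and 0.000999), the day 2 calls being lost under quantile normalization (adjusted p = 0.193 and 0.0928). The highest values of Pdgfra (fibroblasts), Prss2 (acinar cells) and Ins2 (islets) were 2.81, 2.09 and 1.46 TPM, and those of Ptprc (leukocytes), Pecam1 (endothelium) and Col1a2 (fibroblasts) 0.515, 0.535 and 0.0313 TPM. The 8 epithelial markers were split, with 1 higher and 5 lower at day 2, and 3 higher and 3 lower at day 14. Of all tested genes 59.0% and 55.1% were called on those days. Among these markers, Krt7 fell on both days (limma -1.70 and -1.56, adjusted p = 1.44e-06 and 1.20e-05), and Epcam fell at day 2 and rose at day 14 (limma -0.93 and 2.20, adjusted p = 0.00941 and 0.000134). Mean Sox9 went from 8.48 to 31.8 and 26.3 TPM, and mean Cdh1 from 240 to 224 and 399 TPM. Both sums moved with the day, and their part in the results was not tested. A single abundant row, Mir6236, took 8.27% to 14.6% of all TPM in 8 libraries and 22.5% in day 2 replicate 3. TPM keep no read totals, so depth is unknown.

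At day 2 the members with the largest rises were Ddit4, Sesn2 and Sesn3. Ddit4, Sesn2, Sesn3, Tsc1 and Sesn1 were higher than at day 0 and Depdc5 was lower, while Tsc2, Nprl2 and Flcn did not pass the test. That made 5 higher and 1 lower of 9 tested members (limma on log2(TPM + 1), adjusted p under 0.05), beside 59.0% of all tested genes called in either direction, 27.1% as higher and 31.9% as lower. The members' median was 0.69 on the log2 scale and that of all tested genes -0.02. Values of the 2 days did not overlap for 7 of the 9, beside 66.5% of all tested genes. Of all calls 45.9% were higher, or 56.9% once the 20 most abundant rows were removed. In a bulk sample, less RNA per cell and fewer cells that hold it cannot be told apart.

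At day 14, Ddit4, Sesn2, Sesn3, Nprl2 and Tsc2 were higher than at day 0 and 0 members were lower. The 5 of 9 stood beside 55.1% of all tested genes called, 36.2% as higher and 18.8% as lower, and 8 of the 9 did not overlap, beside 66.6%. The members' median was 0.41 and that of all tested genes 0.22, so a log2 value near 0.22 was the middle of all genes. That middle was -0.05 under median-of-ratios scaling and -0.02 under quantile normalization, and the share of calls that were higher went from 65.8% to 43.4% and 45.8%. With either scaling 3 members were higher, Ddit4, Sesn2 and Sesn3, and 1 lower, Depdc5.

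Between day 2 and day 14, Sesn3 rose and no other member passed, 1 of 9 beside 31.2% of all tested genes (27.4% higher, 3.79% lower). Values of these days did not overlap for 4 of the 9, beside 41.3% of all. The members' median was 0.14 and that of all tested genes 0.25. The share of all calls that were higher was 87.8%, and it was 51.4% under median-of-ratios scaling, 43.6% under quantile normalization and 76.0% without the 20 most abundant rows. The comparisons with day 0 share the same 3 libraries of that day.

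**Figure D1:**
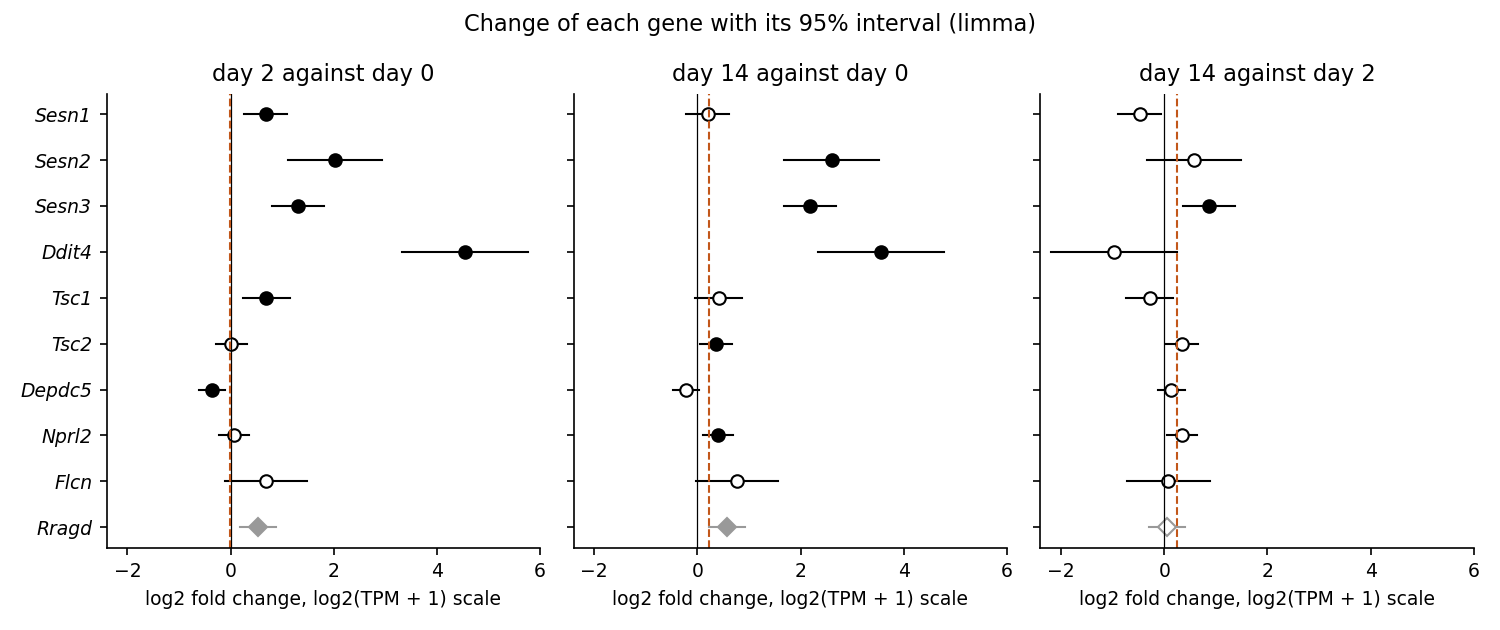
Log2 fold change of each gene on the log2(TPM + 1) scale with its 95% limma interval, in each of the 3 comparisons of days. Filled marks passed an adjusted p of 0.05, open marks did not, grey diamonds for Rragd come from a fit without the expression filter, and the dashed line is the median of all tested genes. Ddit4, Sesn2 and Sesn3 lie farthest to the right in both comparisons with day 0.

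The sestrin gene Sesn2 encodes a leucine sensor. Its levels were 4.87, 3.26 and 3.74 TPM at day 0, 8.70, 28.2 and 26.8 TPM on day 2, and 21.5, 26.9 and 41.0 TPM at day 14. All 6 later libraries were above those of day 0, and day 2 replicate 1 was far below the rest of its day. The mean was 5.36 times that of day 0 at day 2 (limma log2 fold change 2.02, SE 0.40, adjusted p = 0.00223). At day 14 it was 7.53 times (limma log2 fold change 2.60, SE 0.40, adjusted p = 0.000740). Day 14 and day 2 overlapped, and limma gave a difference of 0.58 (95% interval -0.33 to 1.5, adjusted p = 0.301). With single libraries left out this ran from 0.0639 without day 2 replicate 1 to 0.86 without day 2 replicate 2, and limma called it in none of those fits (adjusted p of 0.155 to 0.877).

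Sesn3, a sestrin known as a FOXO target, rose at both steps. It measured 5.14, 5.20 and 5.28 TPM at day 0, 18.5, 10.8 and 14.9 TPM on day 2, and 37.4, 24.0 and 22.4 TPM at day 14. No days overlapped, and the day 0 libraries were nearly equal. The limma log2 fold change from day 0 was 1.31 at day 2 (SE 0.22, adjusted p = 0.000877) and 2.18 at day 14 (SE 0.22, adjusted p = 8.87e-05). From day 2 to day 14 Sesn3 rose by a further 0.87 (limma adjusted p = 0.0171). That last limma call was lost under median-of-ratios scaling (0.60, adjusted p = 0.0932), quantile normalization (0.60, adjusted p = 0.0951) and a fit of those 2 days alone (0.87, adjusted p = 0.0505).

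Sesn1, best known as a p53 target, was higher than at day 0 by the test on day 2 and not on day 14. Its levels were 4.06, 4.04 and 3.92 TPM at day 0, 9.35, 5.89 and 6.18 TPM on day 2, and 5.75, 4.79 and 3.87 TPM at day 14. Each day 2 library was above each of the other libraries, and day 14 overlapped day 0. The limma log2 fold change was 0.68 at day 2 (SE 0.18, adjusted p = 0.0110) and 0.20 at day 14 (95% interval -0.21 to 0.62, adjusted p = 0.373). The difference between day 14 and day 2, -0.47, did not pass (limma adjusted p = 0.0782), but it did under median-of-ratios scaling (-0.71, adjusted p = 0.0221), quantile normalization (-0.91, adjusted p = 0.00921) and removal of the 20 most abundant rows (-0.60, adjusted p = 0.0451). Trp53, the p53 gene itself, fell from 238 ± 6.94 TPM to 118 ± 15.0 TPM and 168 ± 19.1 TPM on days 2 and 14 (limma log2 fold changes -1.01 and -0.51, adjusted p = 9.20e-05 and 0.00576). The protein p53 and its activity were not measured here, and a relation to Sesn1 was not tested.

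The sestrin pool was larger in every later library than at day 0, though the sum was not tested, and its Sesn1 share was smaller. TPM are corrected for length, so levels of different genes in a library can be added and compared. Summed sestrin mRNA was 13.2 ± 0.805 TPM, then 43.1 ± 5.86 TPM, then 62.5 ± 6.12 TPM over the 3 days. Sesn1 made up 30.5% ± 1.75 of it, then 17.2% ± 7.25, then 7.75% ± 1.74, with no overlap between any days. Each of those differences had an exact permutation p of 0.1 (two-sided), the smallest that 3 libraries against 3 allow, and 0.15 after Benjamini-Hochberg adjustment over 18 such tests. From day 2 to day 14 the Sesn1 share changed by -9.45 percentage points, or by -5.26 without day 2 replicate 1. The Sesn2 share was 29.9% ± 4.35, 47.5% ± 20.8 and 47.5% ± 13.9, and its days overlapped. In day 2 replicate 1 and day 14 replicate 1 Sesn3 was the larger part, at 50.6% and 57.8%, while Sesn2 made up 62.8% in day 2 replicate 2 and 61.0% in day 14 replicate 3.

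**Figure D2:**
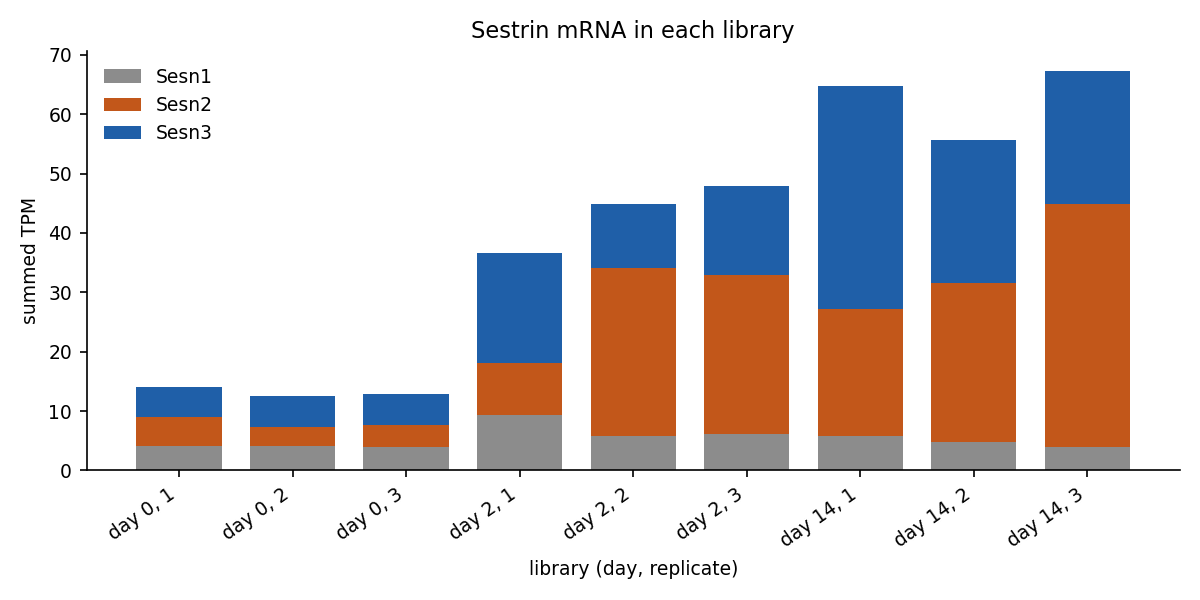
Summed TPM of the 3 sestrin genes in each of the 9 libraries, where the height of each coloured part is the TPM of 1 gene. The sum is 12.5 to 14.1 TPM at day 0 and 55.6 to 67.3 TPM at day 14, while the Sesn1 part lies between 3.87 and 9.35 TPM throughout.

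Ddit4 encodes REDD1, an inhibitor of mTORC1 induced by low oxygen and by ATF4. It stood at 15.8, 6.0 and 1.84 TPM at day 0, 226, 120.3 and 151 TPM on day 2, and 104, 65.8 and 78.0 TPM at day 14. No days overlapped, and the spread at day 0 was the widest of any member relative to its mean. Mean TPM was 21.0 times that of day 0 at day 2 (limma log2 fold change 4.54, SE 0.54, adjusted p = 0.000105) and 10.5 times at day 14 (3.56, SE 0.54, adjusted p = 0.000646). Day 14 differed from day 2 by -0.97, which did not pass (95% interval -2.19 to 0.25, limma adjusted p = 0.198). A limma fit of those 2 days alone, which leaves out the spread of day 0, called it (adjusted p = 0.0388).

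By mean TPM, Ddit4 ranked below Tsc2, Flcn, Nprl2, Tsc1 and Depdc5 at day 0 and above every other member at day 2 and day 14. Its share of the summed TPM of the 10 members was 7.42% ± 6.06, then 53.1% ± 6.69, then 31.9% ± 0.852. No days overlapped in this share (exact permutation p = 0.1 for each pair, two-sided, the smallest possible, and 0.15 adjusted). The 10 members summed to 99.7 ± 12.2 TPM, 307 ± 64.4 TPM and 258 ± 53.4 TPM. Ddit4l, the paralog that encodes REDD2, was low at 1.73 ± 0.0609, 2.00 ± 0.192 and 3.86 ± 1.76 TPM. It passed at day 14 (limma log2 fold change 0.76, adjusted p = 0.0283), but not under median-of-ratios scaling (0.55, adjusted p = 0.0946) or quantile normalization (0.13, adjusted p = 0.710).

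**Figure D3:**
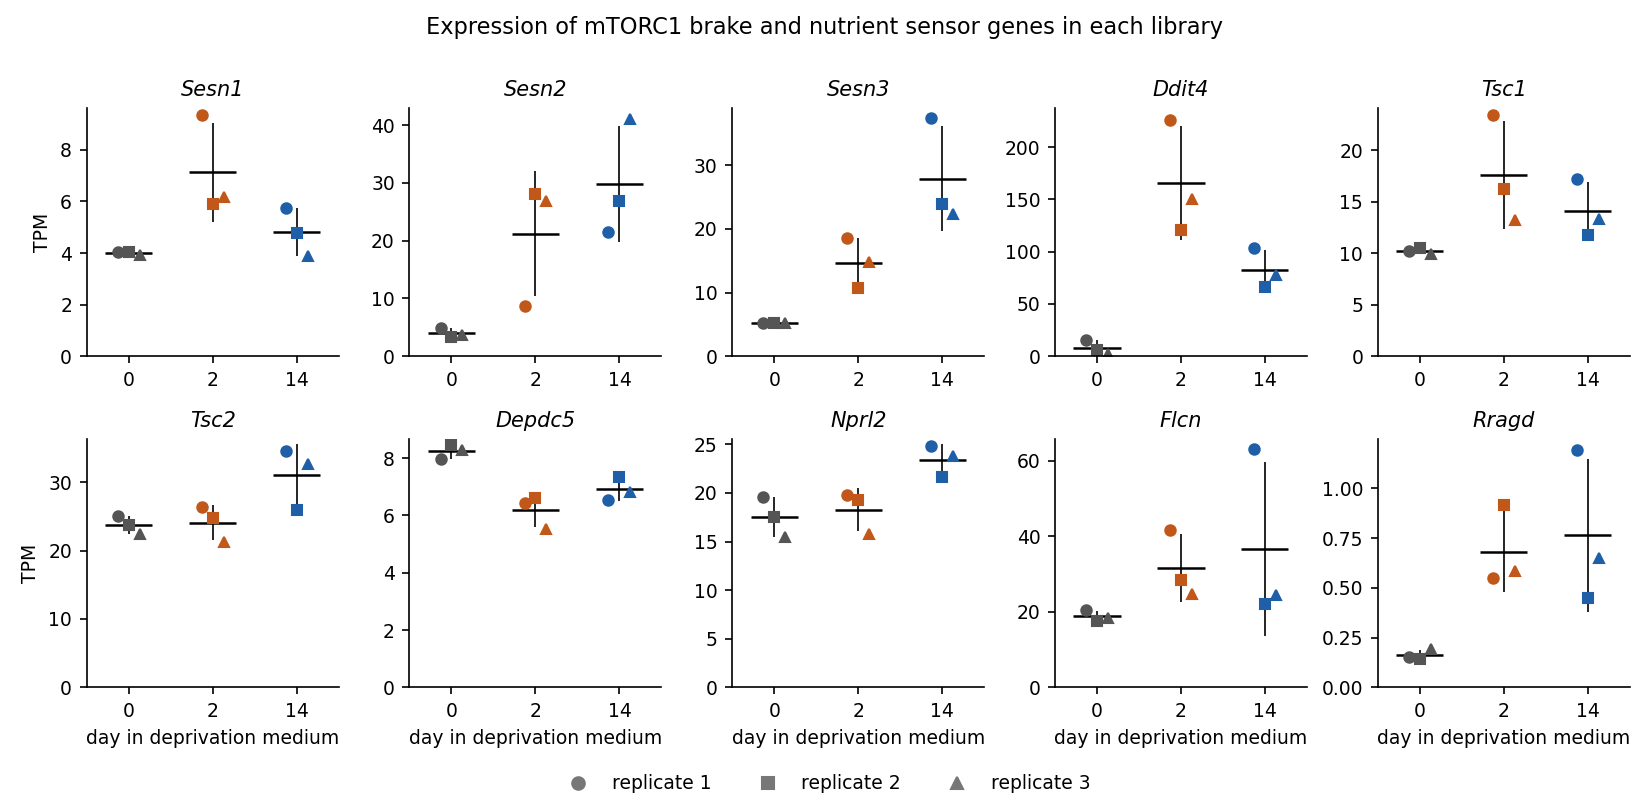
TPM of each of the 10 members in every library, with a panel and a linear axis from 0 for each gene. Marks are libraries, horizontal bars are means and vertical bars are SD over 3 libraries. Ddit4 reaches 120.3 to 226 TPM at day 2, and Rragd passes 1 TPM only in day 14 replicate 1.

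The TSC complex is built from hamartin (Tsc1), tuberin (Tsc2), which carries the GAP activity toward Rheb, and TBC1D7. Their mRNAs moved differently at day 2, and at day 14 that of Tbc1d7 alone was below day 0. Tsc1 measured 10.2, 10.4 and 9.96 TPM at day 0, 23.4, 16.2 and 13.2 TPM on day 2, and 17.2, 11.8 and 13.3 TPM at day 14. All later libraries were above day 0, and the later days overlapped. At day 2 Tsc1 rose, with a limma log2 fold change of 0.70 (SE 0.20, adjusted p = 0.0153). Day 14 gave 0.41 and did not pass (95% interval -0.04 to 0.87, limma adjusted p = 0.111), though it did without day 2 replicate 1 (adjusted p = 0.0474) and with only the 2 days fitted (adjusted p = 0.0459).

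Tsc2 had 25.1, 23.7 and 22.4 TPM at day 0, 26.3, 24.7 and 21.2 TPM on day 2, and 34.5, 25.9 and 32.6 TPM at day 14. Day 2 overlapped day 0 (limma log2 fold change 0.02, 95% interval -0.29 to 0.32, adjusted p = 0.929). Day 14 lay above day 0, by 0.36 (SE 0.13, limma adjusted p = 0.0453). This limma call was lost under median-of-ratios scaling (0.07, adjusted p = 0.611), under quantile normalization (0.22, adjusted p = 0.149), without the filter (adjusted p = 0.0544) and without any one of day 0 replicates 1, 2 and 3 (adjusted p = 0.0679, 0.107 and 0.131), day 2 replicate 2 (0.0513) and day 14 replicates 1 and 3 (0.138 and 0.119). Exons of Tsc2 share 693 bases with those of Pkd1 on the opposite strand in GENCODE M21, and whether the libraries kept strand is not given in the sources used here, so the level of Tsc2 is uncertain.

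Tbc1d7 fell, from 19.7 ± 2.51 TPM at day 0 to 9.97 ± 1.62 TPM and 10.2 ± 2.16 TPM (limma log2 fold changes -0.92 and -0.90, adjusted p = 0.00192 and 0.00265). The log2 ratio of Tsc1 to Tsc2 within a library, which a single factor per library cannot move, was -1.22 ± 0.07 at day 0, -0.49 ± 0.28 at day 2 and -1.15 ± 0.14 at day 14. Day 2 overlapped neither other day (exact permutation p = 0.1 for each, two-sided, the smallest possible, 0.15 adjusted), and day 14 overlapped day 0 (exact permutation p = 0.4, 0.45 adjusted). By these TPM, tuberin mRNA exceeded hamartin mRNA in all 9 libraries, by the smallest margin at day 2. The uncertainty of the Tsc2 level from the bases shared with Pkd1 holds for this ratio too. Quantile normalization can change such a ratio and was not applied to it.

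GATOR1, the GAP complex for RagA and RagB, is formed by DEPDC5, NPRL2 and NPRL3. Depdc5 measured 7.96, 8.47 and 8.30 TPM at day 0, 6.44, 6.60 and 5.52 TPM on day 2, and 6.55, 7.34 and 6.82 TPM at day 14. Every later library was below every day 0 library. Depdc5 fell at day 2 (limma log2 fold change -0.37, SE 0.11, adjusted p = 0.0203). Its limma value at day 14, -0.23, did not pass (95% interval -0.48 to 0.03, adjusted p = 0.118), but did under median-of-ratios scaling (-0.49, adjusted p = 0.00247) and quantile normalization (-0.65, adjusted p = 0.000814). The day 2 limma call was lost with the 20 most abundant rows removed (-0.23, adjusted p = 0.0742), and without day 0 replicate 2 (-0.35, adjusted p = 0.0749), day 0 replicate 3 (-0.36, adjusted p = 0.0600) or day 2 replicate 3 (-0.30, adjusted p = 0.0548).

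Nprl2 had 19.5, 17.5 and 15.5 TPM at day 0, 19.8, 19.3 and 15.8 TPM on day 2, and 24.8, 21.6 and 23.8 TPM at day 14. Day 2 overlapped day 0 (limma log2 fold change 0.06, 95% interval -0.23 to 0.35, adjusted p = 0.715), and all day 14 libraries were above both. At day 14 the limma value was 0.40 (SE 0.13, adjusted p = 0.0262). It did not pass under median-of-ratios scaling (0.12, adjusted p = 0.405) or quantile normalization (0.20, adjusted p = 0.165), nor in limma fits without day 0 replicate 2 (0.41, adjusted p = 0.0700), day 0 replicate 3 (0.32, adjusted p = 0.102), day 14 replicate 1 (0.36, adjusted p = 0.0736) or day 14 replicate 3 (0.39, adjusted p = 0.0640).

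Nprl3, the remaining subunit, rose from 11.8 ± 0.373 TPM to 18.1 ± 2.46 TPM and 18.7 ± 3.18 TPM on days 2 and 14 (limma log2 fold changes 0.57 and 0.61, adjusted p = 0.00731 and 0.00600). The day 14 limma call was lost under median-of-ratios scaling (0.33, adjusted p = 0.0617) and quantile normalization (0.35, adjusted p = 0.0679). Depdc5 was the least abundant GATOR1 mRNA in each day's mean. The log2 ratio of Depdc5 to Nprl2 within a library was -1.08 ± 0.20 at day 0, -1.56 ± 0.05 at day 2 and -1.76 ± 0.18 at day 14. Both later days lay below day 0 without overlap (exact permutation p = 0.1 for each, two-sided, the smallest possible, 0.15 adjusted).

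**Figure D4:**
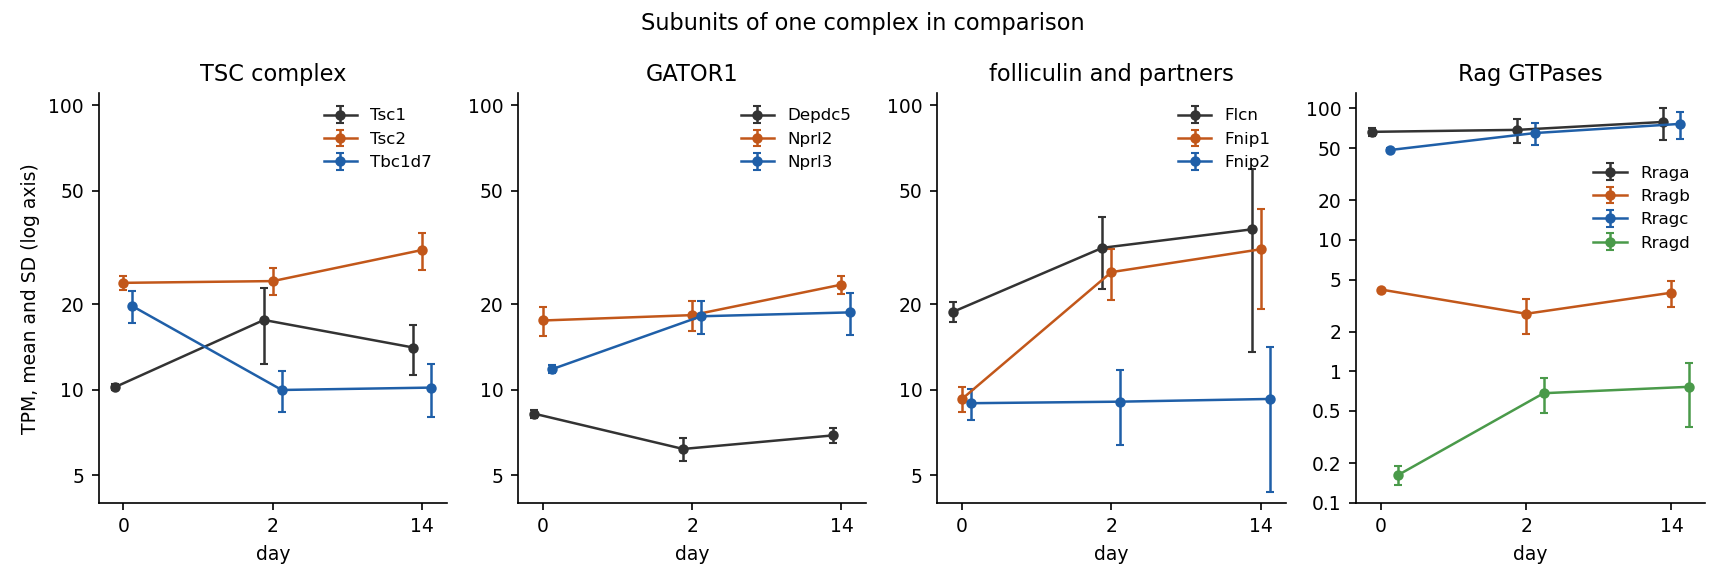
Mean TPM and SD over 3 libraries for the subunits of the TSC complex, GATOR1, folliculin with its partners, and the Rag GTPases, on log axes, with days drawn at equal spacing. Between day 0 and day 2 Tsc1 goes up and Tbc1d7 down, Nprl3 goes up and Depdc5 down, and Fnip1 goes from 9.27 to 25.9 TPM while Fnip2 goes from 8.96 to 9.07 TPM. Rragd lies far below Rragc on each day.

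Folliculin works with FNIP1 or FNIP2 as a GAP for RagC and RagD. Flcn and Rragd are followed here as nutrient sensing genes and not as brakes, and mTORC1 activity was not measured. Flcn measured 20.4, 17.5 and 18.4 TPM at day 0, 41.6, 28.3 and 24.6 TPM on day 2, and 63.2, 22.2 and 24.5 TPM at day 14. All 6 later libraries were above day 0, and day 14 replicate 1 was 2.58 times the next library of its day. Flcn passed neither at day 2 (limma log2 fold change 0.69, 95% interval -0.11 to 1.49, adjusted p = 0.124) nor at day 14 (0.77, -0.03 to 1.57, adjusted p = 0.0930). Without day 14 replicate 1, limma called day 2 (0.69, adjusted p = 0.0112) and not day 14 (0.30, adjusted p = 0.249). Without day 14 replicate 2, it called day 14 (1.04, adjusted p = 0.0445). Day 2 also passed in limma with sample weights (0.76, adjusted p = 0.0368) and with only the groups compared (0.69, adjusted p = 0.0186). Leaving out the first replicates of both later days, an alternative added once the data had been seen, limma gave 0.47, adjusted p = 0.0141 at day 2 and 0.30, adjusted p = 0.0790 at day 14.

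Of the partners, Fnip1 rose and Fnip2 did not pass. Fnip1 went from 9.27 ± 0.923 TPM to 25.9 ± 5.23 TPM and 31.2 ± 11.9 TPM (limma log2 fold changes 1.37 and 1.58, adjusted p = 0.00146 and 0.000896). Fnip2 was at 8.96 ± 1.13, 9.07 ± 2.68 and 9.28 ± 4.90 TPM (limma log2 fold changes -0.02 and -0.05, adjusted p = 0.969 and 0.906). At day 14 the Fnip1 libraries held 43.8, 20.2 and 29.5 TPM and the Fnip2 libraries 14.9, 6.48 and 6.41 TPM, both highest in replicate 1, as Flcn was.

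Rragd, the RagD gene and a known target of the TFEB family, was scarce. It measured 0.151, 0.145 and 0.193 TPM at day 0, 0.547, 0.916 and 0.583 TPM on day 2, and 1.19, 0.447 and 0.650 TPM at day 14. All 6 later libraries lay above day 0, and the later days overlapped. In a limma fit without the filter, on a log2(TPM + 1) scale that compresses such low levels, the values were 0.53 at day 2 and 0.58 at day 14 (adjusted p = 0.0261 and 0.0173). Rragd made up 0.338% ± 0.0669 of the summed Rragc and Rragd TPM on day 0, then 1.04% ± 0.212, then 0.952% ± 0.273. Both later days lay above day 0 in this share (exact permutation p = 0.1 for each, two-sided, the smallest possible, 0.15 adjusted). With 1 TPM added to each gene, the day 14 difference from day 0 turned from 0.613 to -0.0725 percentage points.

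The paralog Rragc (RagC) was at 48.3 ± 1.61, 65.0 ± 12.3 and 76.3 ± 17.4 TPM. It was higher at day 14 (limma log2 fold change 0.63, adjusted p = 0.0175), a call lost under median-of-ratios scaling (0.33, adjusted p = 0.102), and missed the threshold at day 2 (0.41, adjusted p = 0.0854). Rraga (RagA), at 66.4 ± 4.87, 68.8 ± 14.6 and 78.9 ± 21.5 TPM, passed on neither day (limma adjusted p = 0.908 and 0.413). Rragb (RagB) fell at day 2 from 4.19 ± 0.0515 to 2.74 ± 0.829 TPM (limma log2 fold change -0.50, adjusted p = 0.0474), a call lost with the 20 most abundant rows removed (-0.39, adjusted p = 0.110), and was at 3.97 ± 0.886 TPM at day 14. Of the 8 partner genes, 2 rose and 2 fell at day 2, 4 rose and 1 fell at day 14, and 0 passed between the later days, where 59.0%, 55.1% and 31.2% of all tested genes were called. Median-of-ratios scaling left 1 higher and 1 lower at day 14.

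Libraries of a day did not deviate alike for all members. Day 2 replicate 1 was the highest of its day for 7 of 10 members, beside 37.9% of all tested genes, and day 14 replicate 1 for 8 of 10, beside 37.4%. Day 0 replicate 1 was the highest of its day for 6 of 10, beside 28.4%. Sesn2 had its lowest value of the day in replicate 1 of day 2 and of day 14, Rragd in day 2 replicate 1 and Depdc5 in day 14 replicate 1. In day 2 replicate 1, Sesn2 was 1.04 below its day mean on the log2(TPM + 1) scale, while Ddit4 was 0.50, Tsc1 0.43, Flcn 0.43, Sesn1 0.37 and Sesn3 0.34 above theirs. Day 2 replicate 3, with the high Mir6236 share, was the lowest of its day for 5 of 10 members, beside 50.3% of all tested genes. Beyond leaving each library out, the part of these deviations in the results was not tested.

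**Figure D5:**
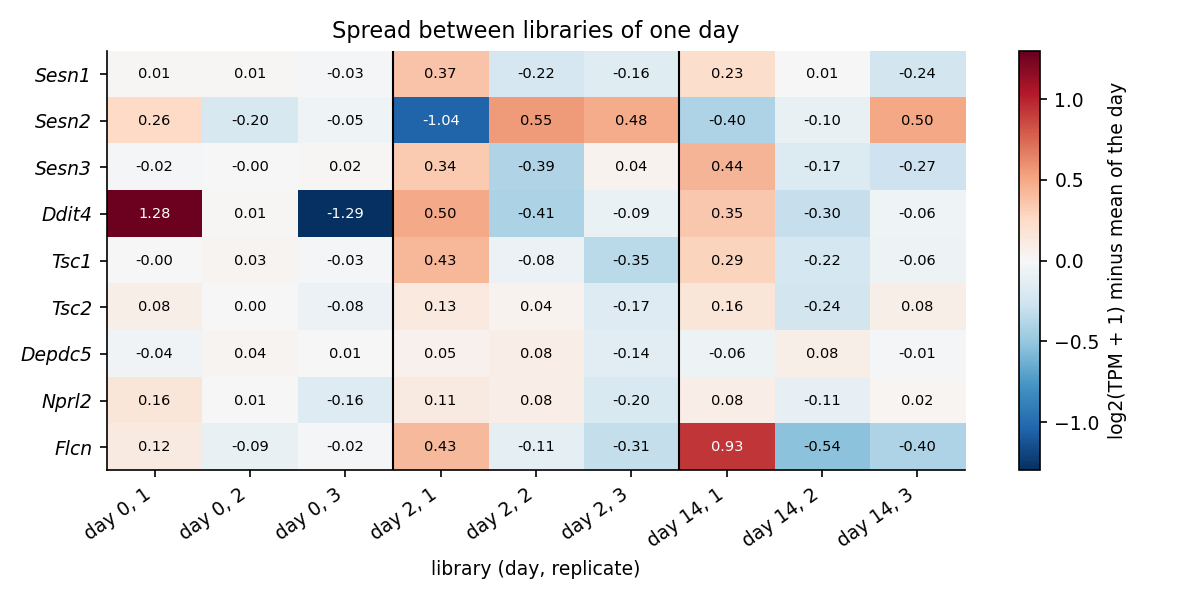
Deviation of each tested member from its mean over the 3 libraries of the same day, on the log2(TPM + 1) scale, with genes and libraries as rows and columns. Sesn2 is 1.04 below its mean in day 2 replicate 1, where Ddit4, Tsc1, Flcn, Sesn1 and Sesn3 are 0.34 to 0.50 above theirs.

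Transcription factors known to act on these genes differed in that same library. Atf4, the factor of the amino acid response, held 440.1, 641 and 592 TPM in the day 2 libraries, and Ddit3, which codes for CHOP, held 122, 255 and 222 TPM. Both were lowest in replicate 1, as were Sesn2 and Rragd, while Ddit4 was highest there. Foxo3, which codes for a FOXO factor, held 61.6, 35.1 and 29.5 TPM and was highest in replicate 1, as were 7 of the 10 members. Foxo1, Tfeb, Tfe3 and the HIF gene Epas1 were also highest there. Foxo4 was highest in replicate 3, and Trp53 and the HIF gene Hif1a in replicate 2. Of all tested genes, 37.9% were highest and 28.1% lowest in day 2 replicate 1. At day 14, Atf4 held 498, 522 and 626 TPM and was again lowest in replicate 1, with Sesn2. Ddit3 held 338, 129 and 234 TPM at day 14 and was highest in replicate 1, where Sesn2 was lowest. Foxo3 was highest in that library too, at 32.0, 18.6 and 18.9 TPM, as were Foxo1, Tfeb, Epas1 and Hif1a. Foxo4 was highest in replicate 2 of day 14, and Tfe3 and Trp53 in replicate 3. In day 14 replicate 1, 37.4% of all tested genes were highest and 38.8% lowest. These are single libraries, and no relation was tested.

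Over the days, 7 of the 10 tested factors rose and 1, Trp53, fell at day 2, and the counts were 7 and 1 at day 14. Their medians were 0.65 and 0.65, beside -0.02 and 0.22 for all tested genes, of which 59.0% and 55.1% were called. Ddit3 went from 20.8 ± 4.30 to 199.9 ± 69.4 and 234 ± 104 TPM (limma log2 fold changes 3.15 and 3.34, adjusted p = 8.80e-05 and 0.000124). Foxo3 rose by 2.48 and 1.67 (limma adjusted p = 7.92e-05 and 0.00113), and Atf4 by 0.92 and 0.90 (limma adjusted p = 0.000606 and 0.000916). Tfe3, which can act on Rragd and Flcn, rose by 0.56 and 0.57 (limma adjusted p = 0.00949 and 0.0101), the day 14 call being lost under median-of-ratios scaling (0.29, adjusted p = 0.0746). Tfeb, of the same family, was not higher in its means, at 7.28 ± 1.06, 5.15 ± 2.20 and 6.89 ± 1.65 TPM, and its days overlapped. The median-of-ratios counts at day 14 were 5 higher and 1 lower.

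Genes with the pattern most like a member's were read off for Ddit4, Sesn2, Sesn3 and Flcn, the 4 tested members with the widest range of day means. Pearson's r over the 9 libraries is given as a description, followed by r once each day's mean was removed, since the libraries share the 3 days. The genes were picked by r over these same libraries, so r after that removal is no separate check. For Sesn2, genes among the nearest were Chac1, a glutathione-degrading enzyme induced by ATF4 and CHOP (0.992 and 0.959), and Gpt2, a mitochondrial alanine aminotransferase (0.985 and 0.913). Chac1 held 16.0, 63.6 and 67.2 TPM in the day 2 libraries, lowest where Sesn2 was lowest, a match that its selection by r makes likely.

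For Ddit4 the nearest were Nr4a2, a nuclear receptor (0.991 and 0.924), Lpin1, a phosphatidate phosphatase and mTORC1 substrate (0.988 and 0.919), and Arrdc2, an arrestin-domain protein (0.986 and 0.857). For Sesn3 they were Samd9l (0.994 and 0.922), R3hdm4 (0.991 and 0.909) and the cytochrome P450 gene Cyp3a13 (0.991 and 0.906). For Flcn they were Vps18, a subunit of tethering complexes that serve lysosomes (0.969 and 0.950), Plekhh3 (0.966 and 0.954) and Sowahc (0.960 and 0.964).

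The 15 genes of GATOR2, of KICSTOR, which anchors GATOR1 at the lysosome, and of amino acid sensors held calls in both directions. At day 2, 5 rose and 3 fell (median 0.30), and at day 14, 8 rose and 2 fell (median 0.41), beside 59.0% and 55.1% of all tested genes called. The day 2 counts were 9 higher and 2 lower without the 20 most abundant rows, and 8 and 2 without Mir6236 and Rn45s. Calls over all tested genes moved too, from 3438 higher and 4046 lower to 4563 and 3457, and to 4172 and 3664. Bmt2, which codes for the S-adenosylmethionine sensor SAMTOR, rose from 11 ± 1.06 to 28.7 ± 4.84 and 27.3 ± 1.01 TPM (limma log2 fold changes 1.31 and 1.25, adjusted p = 4.13e-05 and 0.000114). Gatsl2, an older symbol of the gene for the arginine sensor family protein CASTOR2, rose at day 14 by 0.95 (limma adjusted p = 0.00867), which quantile normalization did not call (0.31, adjusted p = 0.311). At day 14 under median-of-ratios scaling, 4 of the 15 were higher and 2 lower, with a median of 0.12.

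Ragulator holds the Rags on the lysosome. Of 7 genes of Ragulator, Rheb and its paralog, 3 fell at day 2 and 2 at day 14 and 0 rose (medians -0.35 and -0.13). Of all tested genes 31.9% and 18.8% were lower and 27.1% and 36.2% higher on those days. Under quantile normalization 1 was higher and 1 lower on each day, with medians of -0.0454 and -0.0671. Under median-of-ratios scaling 4 were lower at day 14 (median -0.42). Lamtor4, a Ragulator subunit, fell from 48.1 ± 9.93 to 21.2 ± 4.18 and 20.5 ± 3.57 TPM (limma log2 fold changes -1.15 and -1.18, adjusted p = 0.00114 and 0.00126). Rheb was at 96.4 ± 5.19, 101 ± 19.2 and 119.8 ± 8.89 TPM and passed on neither day (limma adjusted p = 0.792 and 0.0843). Under quantile normalization Rheb was called higher on both (limma 0.39, adjusted p = 0.0248 and 0.38, adjusted p = 0.0299).

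Of 8 tested genes of the mTOR complexes, 3 rose and 3 fell at day 2, and 3 rose and 1 fell at day 14, or 3 and 4 under median-of-ratios scaling. Of all tested genes 59.0% and 55.1% were called on those days. Quantile normalization gave 5 higher and 2 lower at day 2, and 3 and 3 at day 14. Over all tested genes it gave 3688 higher and 3470 lower at day 2, and 2843 and 3363 at day 14. Deptor, which codes for an inhibitor bound to mTOR, rose from 1.87 ± 0.177 to 11.4 ± 0.195 and 7.24 ± 0.981 TPM (limma log2 fold changes 2.11 and 1.52, adjusted p = 1.83e-06 and 3.36e-05). Rictor, the gene of the defining mTORC2 subunit, rose from 6.84 ± 0.505 to 27.1 ± 4.47 and 21.0 ± 1.23 TPM (limma 1.83 and 1.49, adjusted p = 6.45e-06 and 5.38e-05).

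Of 10 tested mTORC1 substrates, 5 rose and 3 fell at day 2 and 5 rose and 2 fell at day 14, or 3 and 2 under median-of-ratios scaling, beside 59.0% and 55.1% of all tested genes called. Under quantile normalization 5 were higher and 0 lower at day 2, beside 3688 higher and 3470 lower of all tested genes (3438 and 4046 as reported). Eif4ebp1, which codes for the translation repressor 4E-BP1, rose from 165 ± 22.8 to 404 ± 87.3 and 312 ± 55.7 TPM (limma 1.27 and 0.90, adjusted p = 0.000444 and 0.00370). Lpin1 rose by 2.21 and 1.55 (limma adjusted p = 6.89e-05 and 0.000818).

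The TSC complex takes in energy and growth factor signals. Of 10 tested genes of the energy sensor AMPK and its activator LKB1, 2 rose and 5 fell at day 2 and 3 rose and 3 fell at day 14, or 2 and 6 under median-of-ratios scaling. The 7 and 6 called of 10 stood beside 59.0% and 55.1% of all tested genes. Prkab2, an AMPK beta subunit gene, rose by 1.24 and 0.87 (limma adjusted p = 3.58e-05 and 0.000471). Stradb, a partner gene of LKB1, rose by 0.40 and 0.73 (limma adjusted p = 0.0457 and 0.00334), calls lost under quantile normalization (0.26, adjusted p = 0.154 and 0.19, adjusted p = 0.291).

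Of 11 genes of growth factor input, 6 rose and 3 fell at day 2, and 7 rose and 2 fell at day 14, or 5 and 3 under median-of-ratios scaling. Among all tested genes 27.1% rose and 31.9% fell at day 2, and 36.2% rose and 18.8% fell at day 14. The insulin receptor gene Insr rose from 5.76 ± 0.211 to 18.1 ± 2.86 and 15.3 ± 1.47 TPM (limma 1.49 and 1.26, adjusted p = 2.16e-05 and 0.000119).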

How the data were processed

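Gene TPM (length-corrected abundances that sum to a fixed total per library) were made by the authors with Salmon, per the submitters' processing notes, from Qiagen-extracted RNA and Novogene libraries, per the labels. The sources used here do not give the Salmon version, index, build or annotation. The deposited TPM were tested as log2(TPM + 1), after a filter that kept genes reaching 1 TPM in 3 or more libraries. limma 3.58.1 (R 4.3.3) fitted all 9 libraries with a mean per day and eBayes with a trend. P-values are two-sided, Benjamini-Hochberg adjusted over all tested genes, with calls under 0.05. Within-library ratios were compared by exact permutation (scipy 1.17.1), and the fit was tested on simulated data. Plots used matplotlib 3.10.9.

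The named genes are the 10 members, the partners in their complexes, for each other list the 2 with the largest day 14 change from day 0, and the 3 genes (mean of 5 TPM or more; predicted and small RNA rows left out) most like each of 4 members. Some genes that this rule also named are not reported here. Trp53, Atf4, Tfe3, Tfeb, Foxo1, Foxo4, Hif1a, Epas1 and Pkd1 were named after their values were seen. So were Sox9, Cdh1, Ptprc, Pecam1, Col1a2, Pdgfra, Prss2, Ins2 and Mir6236. The members and lists were chosen with earlier results of these data known. Alternatives changed the pseudocount (0.1 or 5), the filter, the scaling, the variance model, the replicate block, the groups fitted, and each library in turn. Removal of Mir6236 and Rn45s was one of the scalings. Leaving out the first replicates of day 2 and day 14 together was chosen after seeing the data.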

Additional observations from a re-analysis of the deposited data

Results flagged for a closer look

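Sesn3 was the member whose change from day 0 differed between the times by the test of that difference: it stood 0.87 higher at day 14 than at day 2 on the log2 scale (limma adjusted p = 0.0171), and every day 14 library was above every day 2 library. It did not pass under median-of-ratios scaling (limma adjusted p = 0.0932), quantile normalization (0.0951) or a fit of those 2 days alone (0.0505). In those limma fits other members passed as lower at day 14: Sesn1 under both scalings (-0.71, adjusted p = 0.0221, and -0.91, adjusted p = 0.00921), Tsc1 under quantile normalization (-0.61, adjusted p = 0.0449) and Ddit4 in the fit of 2 days (-0.97, adjusted p = 0.0388).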

How the results depend on the processing

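The higher levels of Ddit4, Sesn2 and Sesn3 at both later days, and of Sesn1 and Tsc1 at day 2, kept their direction and passed limma in all 23 alternatives run. At day 2 the 1 member lower became 0 without the 20 most abundant rows, and leaving out single libraries gave 0 to 1. At day 14 against day 0, members higher were 3 under median-of-ratios scaling, quantile normalization and the fit without both first replicates, and 3 to 6 with single libraries left out. Members lower went from 0 to 1 under both scalings and sample weights. All-gene calls at day 14 against day 0 were 2843 higher under quantile normalization (4601 as reported) and 4027 lower under median-of-ratios scaling (2389). At day 14 against day 2, genes higher went from 3474 to 1572 (median of ratios) and 1470 (quantile), and genes lower from 481 to 1485, 1905, 818 (20 rows removed), 291 (only the groups compared), 318 to 460 (single libraries left out, lowest without day 2 replicate 1) and 319 (without both first replicates). Members higher there became 0 under both scalings and with only the groups compared, and 1 to 2 with single libraries left out. Members lower became 1, 2, 1 and 1 under median of ratios, quantile, 20 rows removed and only the groups compared. The cause of these shifts was not tested, beyond the smaller sample when libraries are left out.

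No limma value that changed sign had passed as reported. The shares had an exact test that cannot pass 0.05. Sesn1 at day 14 against day 0 was -0.0396 (median of ratios) and -0.35 (quantile). Depdc5 at day 14 against day 2 was -0.11 and -0.26. Flcn there was -0.19 (median of ratios), -0.21 (quantile), -0.0402 (20 rows removed), -0.19 (sample weights), -0.17 (without both first replicates) and -0.39 to 0.35 with single libraries left out. With single libraries left out, day 2 values ran from -0.0487 to 0.10 for Tsc2 and -0.0230 to 0.16 for Nprl2, and without both first replicates Tsc2 was -0.0487. The day 14 minus day 2 difference of the Sesn2 share ran from -11.9 to 7.60 percentage points and that of the Rragd share from -0.243 to 0.0101 with single libraries left out. With 1 TPM added to each gene, the Sesn2 difference was 0.141, and the Rragd difference at day 14 against day 0 was -0.0725.

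Whether the replicate numbers pair the libraries is not settled by these values. After day means were removed, same-numbered libraries of different days correlated at -0.0709 to 0.318 and differently numbered ones at -0.265 to 0.224. The highest value was that of day 2 replicate 1 with day 14 replicate 1, and 4 of 9 libraries correlated best with their own number. With the replicate number as a block, limma called Flcn at day 2 (0.69, adjusted p = 0.0396) and day 14 (0.77, adjusted p = 0.0279), and no other member's call changed. Depth limits what low genes such as Rragd can show, and TPM do not give it.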
